A study of Rattus norvegicus with 10 samples.

Results

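The 8 genes described here, Wt1, Gata1, Gata4, Sox8, Dmrt1, Nr5a1, Nr0b1 and Cited1, encode transcription factors and cofactors of the gonad. They were chosen by name, and all probes of a rat array whose RefSeq transcript belongs to one of them were taken, which gave 10 of 30367 probes. Wt1 had 3 probes and each other gene had 1. The arrays measured RNA from whole testes of male rats on postnatal day 6, the offspring of Brown Norway males and Sprague Dawley females, with 1 array for each of 10 sires. The fathers had received BEP or saline for 9 weeks and then recovered for 9 weeks. The abbreviation is commonly used for bleomycin, etoposide and cisplatin, given against testicular cancer, but its meaning is not written out in the labels. Fathers have a T in their code on 5 arrays and a C on the other 5. T is read here as BEP and C as saline, an inference that no label states. The number of pups behind each array was not stated. Replicates are numbered in the order of deposit, so a number does not pair a T array with a C array.

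These factors act together in the supporting and steroid-producing cells of the testis. WT1, a zinc finger protein, is needed to form the gonad and to keep Sertoli cells, the nurse cells of the germ line, in their differentiated state. NR5A1 (SF-1), an orphan nuclear receptor, works with GATA4 to switch on Amh, the gene of anti-Müllerian hormone, and also drives steroidogenic genes in Leydig cells. NR0B1 (DAX-1) is an atypical nuclear receptor that represses NR5A1. SOX8 is a close relative of SOX9, the factor that starts Sertoli cell fate, and DMRT1 maintains that fate after birth in the mouse, and is found in germ cells too. GATA1 is the main factor of red cell development and, in the mouse, appears in Sertoli cells after birth, with the first wave of spermatogenesis. CITED1 has no DNA-binding domain and acts as a coactivator through CBP and p300.

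The promoters of 6 of the 8 members were at hand, each 250 bases before to 50 bases after the transcription start in RefSeq (GRCr8 build). They were searched on both strands for short words known to be bound by such factors. The GATA words were AGATAA and its variant AGATAG, then TGATAA and its variant TGATAG. The NR5A1 word was AAGGTCA and the SOX word was AACAAT. The DMRT1 word was ACATTGT, and for WT1 the words were GCGTGGGAG and, as the alternative, GCGGGGGCG. Of 33469 rat promoters of that length, 30.3% held a GATA word, 4.61% the NR5A1 word, 11.7% the SOX word, 3.1% a WT1 word and 3.22% the DMRT1 word. Shown are the members with a match, Nr5a1 and Gata1, and Amh, the shared target whose level is set beside theirs further on. Capitals mark the matches.
Nr5a1 (chr3:42895997-42896296, minus strand): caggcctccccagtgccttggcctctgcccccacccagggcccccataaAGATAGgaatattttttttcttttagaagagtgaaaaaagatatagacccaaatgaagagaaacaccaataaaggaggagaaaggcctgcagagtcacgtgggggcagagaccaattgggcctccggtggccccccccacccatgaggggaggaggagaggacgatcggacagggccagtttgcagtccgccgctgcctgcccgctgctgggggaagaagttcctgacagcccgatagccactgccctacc
Gata1 (chrX:17201387-17201686, plus strand): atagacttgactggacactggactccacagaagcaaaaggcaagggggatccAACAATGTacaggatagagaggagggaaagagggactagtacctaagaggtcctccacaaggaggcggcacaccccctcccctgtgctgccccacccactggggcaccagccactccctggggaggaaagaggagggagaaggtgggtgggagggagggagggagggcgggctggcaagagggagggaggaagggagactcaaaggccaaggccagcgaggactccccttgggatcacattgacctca
Amh (chr7:9559818-9560117, minus strand): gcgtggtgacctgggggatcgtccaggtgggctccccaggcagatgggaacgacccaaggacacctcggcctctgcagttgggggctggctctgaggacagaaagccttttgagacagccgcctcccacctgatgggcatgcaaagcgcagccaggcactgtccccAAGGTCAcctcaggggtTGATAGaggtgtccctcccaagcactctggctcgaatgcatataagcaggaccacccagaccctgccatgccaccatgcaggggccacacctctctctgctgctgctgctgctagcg
The Nr5a1 window held 1 GATA word and the Amh window held an NR5A1 word followed by a GATA word. In the Gata1 window a SOX word overlapped the DMRT1 word, which lay there on the other strand. The windows of Wt1, Dmrt1, Nr0b1 and Cited1 held none of these words. A match describes these letters and is not a measured binding site.

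The members did not differ between T and C testes beyond the spread between arrays. With limma, 0 of the 8 genes had an adjusted p under 0.05, against 0% of the 21892 probes tested. At an unadjusted p under 0.05 there were also 0 of 8, against 3.97% of probes (1.59% of all probes higher and 2.38% lower in T). In none of the 8 did the T and C arrays separate without overlap, which happened on 0.722% of probes. Expressed as T minus C on the log2 scale, 3 genes stood above 0 and 5 below, between -0.11 for Dmrt1 and 0.047 for Sox8, with a median of -0.085. Of all 11561 genes named among the probes, 46.1% stood above 0, and their median was -0.0089. The 95% confidence intervals bound how large a difference could have been missed. Over the 8 genes they reached from 0.715-fold to 1.25-fold (T over C), both at Gata1, and from 0.777-fold to 1.17-fold over the other 7. In this fit of all arrays each therefore excluded a 1.5-fold difference. For Gata1, a weak signal, that holds for this fit only. Its log2 estimate ran from -0.44 within slide 2 to 0.19 within slide 1, settings for which no interval is given. Each array has its own father, but the pups, litters and extractions behind each are not described. The p-values therefore measure only the spread between these arrays.

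Array levels are given as log2 signal relative to the 75th percentile of the array, a scale on which arrays but not probes can be compared. That percentile ran from 1525 to 2686 units, with the lowest on C replicate 1, and arrays correlated at 0.990 to 0.997 over the probes. All 11 measured genes of a testis identity list, among them Amh, Insl3 and Dazl, were well above background on every array. The arrays lay on 2 slides, slide 1 with 2 T and 3 C arrays and slide 2 with 3 T and 2 C arrays. Because whole testes were measured, fewer cells of a type and less RNA per cell cannot be told apart.

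**Figure D1:**
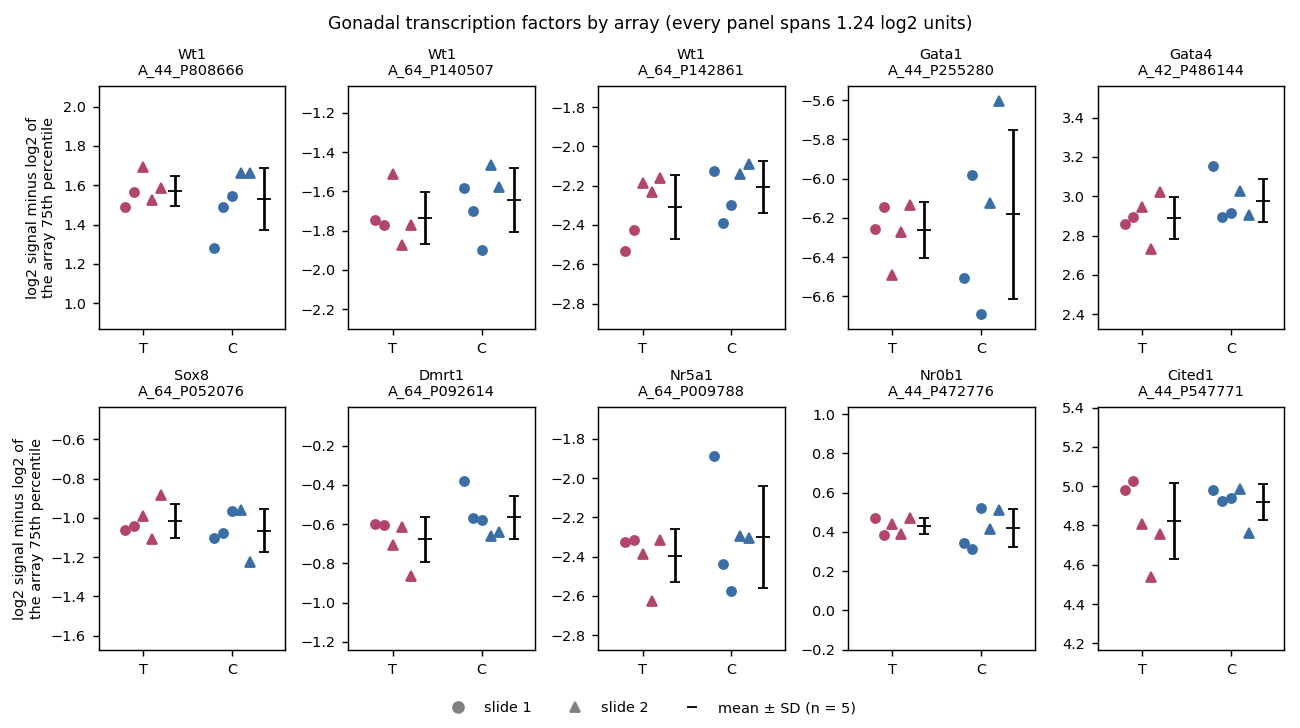
Log2 signal relative to the 75th percentile of the array for the 10 probes of the 8 genes, with T arrays left and C arrays right. Circles are slide 1, triangles slide 2, and bars give the mean ± SD of 5 arrays. The groups overlap in every panel, and the Gata1 panel has the widest spread among C arrays (SD 0.43).

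Of the nuclear receptors, Nr5a1 had one array well above all others. T replicates 1 to 5 read -2.33, -2.31, -2.39, -2.63 and -2.32, and C replicates 1 to 5 read -1.89, -2.44, -2.57, -2.30 and -2.31. The highest array was C replicate 1 and the lowest T replicate 4, while the other 4 T arrays lay within the range of the C arrays. The T minus C difference was -0.095 ± 0.12 (SE, 5 arrays per group, limma adjusted p = 0.999), and it was 0.0087 without C replicate 1, -0.036 without T replicate 4 and -0.16 without C replicate 3. Across the 10 arrays the Nr5a1 level correlated at -0.85 with the log2 of the array's 75th percentile, the measure of overall signal. The part of overall signal in the Nr5a1 values was not tested.

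Nr0b1 was the steadiest member. Its levels were 0.47, 0.38, 0.44, 0.39 and 0.47 on T replicates 1 to 5, against 0.34, 0.31, 0.52, 0.42 and 0.51 on C replicates 1 to 5. The T arrays all lay inside the C range. The SD was 0.042 in the T group and 0.096 in the C group, the residual SD of the fit (0.074) was larger than that of only 7.53% of probes, and the highest array was 1.16-fold above the lowest. The SD between the 2 spots of the probe on an array was 0.10, which puts an error of 0.071 on an array's mean, close to that residual SD. The difference was 0.010 ± 0.061 (adjusted p = 0.999), and leaving out 1 array at a time gave -0.017 (without C replicate 2) to 0.035 (without C replicate 3).

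Both receptors are also made in the adrenal cortex, which lies near the gonad in the embryo. Of 10 adrenal markers, 7 were measured. Their mean deviation from the average over arrays ran from -0.19 to 0.30 in T and from -0.18 to 0.15 in C testes. Of the 7, 5 were well above background on all 10 arrays, among them Cyp21a1, an enzyme of adrenal steroid synthesis, and Cyp11b1, another such enzyme, and Chgb, a chromogranin, each were so on 3 T and 3 C arrays. Mc2r, the receptor for corticotropin, and Dbh, an enzyme of the adrenal medulla, were so on none. T minus C was 0.48 ± 0.43 for Cyp11b1, 0.39 ± 0.35 for Chgb and -0.073 ± 0.12 for Cyp21a1. The 14 measured Leydig cell markers deviated by -0.12 to 0.17 in T and by -0.11 to 0.063 in C testes. Of these Hsd11b1, a glucocorticoid-converting enzyme, was the 1 gene with an unadjusted p under 0.05, at 0.19 ± 0.085. That made 1 higher and 0 lower of 14, against 1.97% and 2.04% of all genes. The part of these cells in the levels of Nr5a1 and Nr0b1 was not tested.

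Gata4, the zinc finger partner of NR5A1, was the best measured member, with 10 spots per array. T replicates 1 to 5 had levels of 2.86, 2.89, 2.94, 2.73 and 3.02, and C replicates 1 to 5 had 3.15, 2.89, 2.91, 3.02 and 2.90. C replicate 1 was again the highest array and T replicate 4 the lowest, and 4 of the 5 T arrays lay among the C arrays or just below them. The SD between spots on an array was 0.040, which puts an error of 0.013 on an array's mean, far below the residual SD of 0.11 between arrays. T minus C was -0.089 ± 0.075 (adjusted p = 0.999), -0.11 within slide 1, -0.066 within slide 2, -0.045 without C replicate 1 and -0.049 without T replicate 4.

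Gata1 gave a weak signal. The mean of its 2 spots was 24.9, 31.0, 24.1, 33.1 and 35.3 units on T replicates 1 to 5, and 18.4, 37.3, 26.0, 28.6 and 56.4 units on C replicates 1 to 5. These readings exceeded the 95th percentile of the 308 negative control spots, which was between 4.12 and 6.59 units, on every array. The probe counted as well above background on 4 T and 4 C arrays, where the scanner software called at least 1 of its 2 spots so. Both spots were called on T replicate 5 and C replicates 2, 4 and 5. Only 1 spot was called on T replicates 2, 3 and 4 and C replicate 1, and neither spot on T replicate 1 and C replicate 3. On the log2 scale the levels were -6.26, -6.15, -6.49, -6.27 and -6.13 for T and -6.51, -5.98, -6.69, -6.12 and -5.60 for C, in the same order. The 2 spots of one array could disagree more than arrays did: on C replicate 5, the highest array, they read 32.6 and 80.2 units, and over all arrays the SD between spots was 0.48, against a residual SD of 0.32 between arrays. T minus C was -0.081 ± 0.18 (adjusted p = 0.999). It was 0.063 without C replicate 5, -0.21 without C replicate 3, -0.16 without C replicate 1, -0.031 without C replicate 2 and -0.023 without T replicate 3.

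Red cells and their relatives could also supply Gata1 transcripts. Of 32 markers of erythroid cells, megakaryocytes and mast cells, 17 were measured, and their mean deviation ran from -0.033 to 0.21 in T and from -0.42 to 0.17 in C testes. Hemgn and Epor, both genes of red cell precursors, stood higher in the T group at unadjusted p under 0.05, 2 higher and 0 lower of 17 against 1.97% and 2.04% of all genes (0.73 ± 0.24 and 0.30 ± 0.11, adjusted p = 0.999 for both with limma), and Hba-a3, an alpha globin, stood at 0.53 ± 0.24. Of the 17, 16 were well above background on all 10 arrays, among them the globins, Alas2 and Slc4a1 of red cells, the blood factors Klf1 and Tal1, and Hdc, which mast cells express. Cma1, a mast cell chymase, was so on 2 T and 3 C arrays. The erythroid genes Gfi1b, Rhag and Epb42 and the mast cell genes Cpa3 and Ms4a2 were so on none. Gata1 and the mean of these markers correlated at 0.22 over the 10 arrays, and the part of blood cells in the Gata1 signal was not tested.

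Wt1 was read by 3 probes of the same transcript, and they did not go the same way. On A_44_P808666, which stands for the gene, the levels were 1.49, 1.56, 1.69, 1.53 and 1.58 in T replicates 1 to 5 and 1.28, 1.49, 1.55, 1.66 and 1.66 in C replicates 1 to 5. C replicate 1 was the lowest array and the groups overlapped otherwise. On A_64_P140507 the values were -1.74, -1.77, -1.51, -1.87 and -1.77 for T and -1.58, -1.70, -1.90, -1.47 and -1.58 for C. On A_64_P142861 they were -2.53, -2.42, -2.19, -2.23 and -2.16 for T and -2.12, -2.39, -2.30, -2.14 and -2.09 for C. The differences were 0.043 ± 0.082, -0.089 ± 0.093 and -0.10 ± 0.093, none larger than the spread (adjusted p = 0.999 for each). On A_44_P808666 the difference was -0.020 without C replicate 1, 0.012 without T replicate 3 and 0.076 without C replicate 4 or C replicate 5.

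The probes also ranked the testes differently. Over the 10 arrays that probe correlated at 0.25 and 0.21 with the other two, which correlated at 0.50 with each other. Its duplicate spots agreed to an SD of 0.024, much less than its residual SD of 0.13 between arrays. Wt1 is also active in mesothelium and in podocytes of the kidney. The 8 measured genes of mesothelium and tunica deviated by -0.13 to 0.19 in T and by -0.27 to 0.16 in C testes, and of these Wnt6, Krt18 and Bnc1 had T minus C of -0.097 ± 0.064, 0.11 ± 0.094 and 0.055 ± 0.087. The 7 measured kidney genes deviated by -0.52 to 0.40 in T and by -0.50 to 0.44 in C testes. Of the 7, 5 were well above background on all 10 arrays. The T minus C differences were 0.32 ± 0.38 for Pax8 and 0.14 ± 0.19 for Six2. Their part in the Wt1 signal was not tested.

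Sox8, the SOX9 relative, read -1.06, -1.04, -0.99, -1.11 and -0.88 in T replicates 1 to 5 and -1.10, -1.08, -0.96, -0.96 and -1.23 in C replicates 1 to 5, from a single spot per array. The highest array was T replicate 5 and the lowest C replicate 5, with the rest intermixed. T minus C was 0.047 ± 0.071 (adjusted p = 0.999). It was 0.0073 without C replicate 5, 0.014 without T replicate 5, and 0.074 without C replicate 4 and 0.073 without C replicate 3. Sox9 itself is not analysed here.

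Dmrt1 had the largest difference of the 8 genes and still a small one. T replicates 1 to 5 lay at -0.60, -0.60, -0.71, -0.62 and -0.86, and C replicates 1 to 5 at -0.38, -0.57, -0.58, -0.66 and -0.64. C replicates 1, 2 and 3 lay above every T array, T replicates 3 and 5 lay below every C array, and the other 5 arrays overlapped. The T minus C difference was -0.11 ± 0.076 (adjusted p = 0.999, unadjusted p = 0.171), or 1.08-fold higher in C, and it was -0.066 without C replicate 1 and -0.065 without T replicate 5. Germ cells, which express Dmrt1 as well, had 17 measured markers, with a mean deviation of -0.12 to 0.12 in T and -0.088 to 0.016 in C testes. T replicate 5 was the lowest array, and the other T arrays, at 0.060 or more, lay above every C array. Of the 17, 13 were above and 4 below 0 (median 0.12), against 46.1% of all genes above 0. Tex101, Piwil2 and Mael, all germ cell genes, stood higher in T at unadjusted p under 0.05, and Tdrd1 stood lower, 3 and 1 of 17 against 1.97% higher and 2.04% lower of all genes. Mael, like Kitlg below, lies outside the rule for named genes and was named after its value was seen. The part of germ cells in the Dmrt1 values was not tested.

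Cited1 gave a strong signal of 47672 to 83116 units per spot, with 0 saturated spots. Its levels were 4.98, 5.03, 4.81, 4.54 and 4.76 on T replicates 1 to 5, against 4.98, 4.93, 4.94, 4.98 and 4.76 on C replicates 1 to 5. T replicate 4 was the lowest array, and 4 of the 5 C arrays lay between 4.93 and 4.98 while C replicate 5 stood lower. T minus C was -0.096 ± 0.095 (adjusted p = 0.999), with 0.056 within slide 1 and -0.17 within slide 2. It was -0.025 without T replicate 4 and -0.15 without T replicate 2. Its duplicate spots agreed to an SD of 0.019, against a residual SD of 0.15 between arrays.

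**Figure D2:**
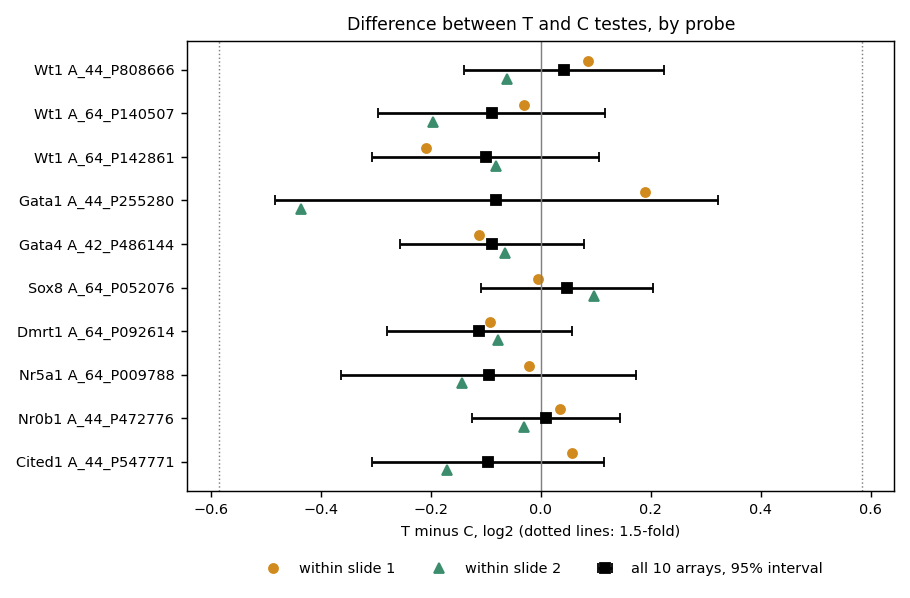
T minus C on the log2 scale for each probe over all 10 arrays (squares, with 95% confidence intervals) and within slide 1 (circles) and slide 2 (triangles). All intervals cross 0 and none reaches the dotted lines of a 1.5-fold difference, and for 5 of the 8 genes the 2 slides lie on opposite sides of 0.

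Slide left a larger mark on the arrays than group did. Slide 2 minus slide 1, with group in the model, passed an adjusted p of 0.05 on 9.79% of the 21892 probes and on 0 of the 10 member probes, and 24.1% of probes had an unadjusted p under 0.05. Among the members slide 2 minus slide 1 was 0.22 ± 0.066 on the Wt1 probe A_64_P142861 (adjusted p = 0.0665), 0.22 ± 0.18 on Gata1 (adjusted p = 0.515) and -0.19 ± 0.079 on Cited1 (adjusted p = 0.172), by limma with 5 arrays per slide. On slide 2 Cited1 averaged 4.70 in T and 4.87 in C testes, and on slide 1 it averaged 5.01 and 4.95. Within slides, T minus C was 0.19 on slide 1 and -0.44 on slide 2 for Gata1, 0.087 and -0.062 for Wt1, -0.0057 and 0.098 for Sox8, and 0.035 and -0.031 for Nr0b1, so the sign turned between slides for these genes and for Cited1. It kept its sign for Gata4, for Dmrt1 (-0.092 and -0.078) and for Nr5a1 (-0.021 and -0.14). With slide as a block the T minus C differences of the 8 genes ran from -0.12 for Gata1 to 0.046 for Sox8. No difference between the slides in T minus C passed the test for any member (limma interaction, lowest unadjusted p = 0.0795 for Gata1, lowest adjusted p = 0.992).

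The members did not vary together as a block. Of the 28 pairs among the 8 genes, 14 had a positive and 14 a negative correlation over the 10 arrays. Only 2 pairs reached an absolute r of 0.7. These correlations describe 10 arrays of 2 groups and 2 slides, whose overall signal also varied, and no p is given for them. Each slide alone holds 5 arrays, too few for an r of its own.

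Gata4 and Nr5a1 had the closest relation, with r = 0.83 and rho = 0.61. It was 0.84 after group and slide were taken out and 0.65 without C replicate 1. Without C replicate 1 and T replicate 4, the 2 arrays farthest from the median of Gata4, r was 0.26, so the relation rests on those arrays. Wt1 and Dmrt1 were opposed (r = -0.74, rho = -0.83), and r was -0.58 after group and slide were taken out and -0.37 without C replicate 1 and T replicate 3. C replicate 1 held the highest or lowest level of 4 of the 8 genes: the lowest Wt1 and the highest Gata4, Dmrt1 and Nr5a1. It was the array with the lowest 75th percentile, and limma's array weights gave it the lowest weight, 0.51, against 0.81 to 1.80 for the others.

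Amh, whose promoter carries the words of both NR5A1 and GATA factors shown above, followed the same arrays. Its levels were 2.34, 2.09, 2.21, 1.79 and 1.97 in T replicates 1 to 5 and 2.79, 2.37, 1.92, 2.39 and 2.31 in C replicates 1 to 5. C replicate 1 was the highest and T replicate 4 the lowest, as for Gata4 and Nr5a1. Amh correlated with Nr5a1 at r = 0.85 and rho = 0.68, and r was 0.86 after group and slide were taken out, 0.68 without C replicate 1 and 0.45 without C replicate 1 and T replicate 4. With Gata4 it correlated at r = 0.67 and rho = 0.47, and at -0.17 without the same pair of arrays, so this relation rests on them. The 6 other members correlated with Amh between -0.45 for Wt1 and 0.58 for Dmrt1. Between the groups Amh stood at -0.28 ± 0.15 (limma adjusted p = 0.999, unadjusted p = 0.0982). This comparison with Amh was chosen after the values were seen. C replicate 1 also had the lowest 75th percentile. The Nr5a1 and Gata4 levels correlated at -0.85 and -0.61 with the log2 of that percentile. The part of overall signal in the relations among these genes and Amh was not tested.

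**Figure D3:**
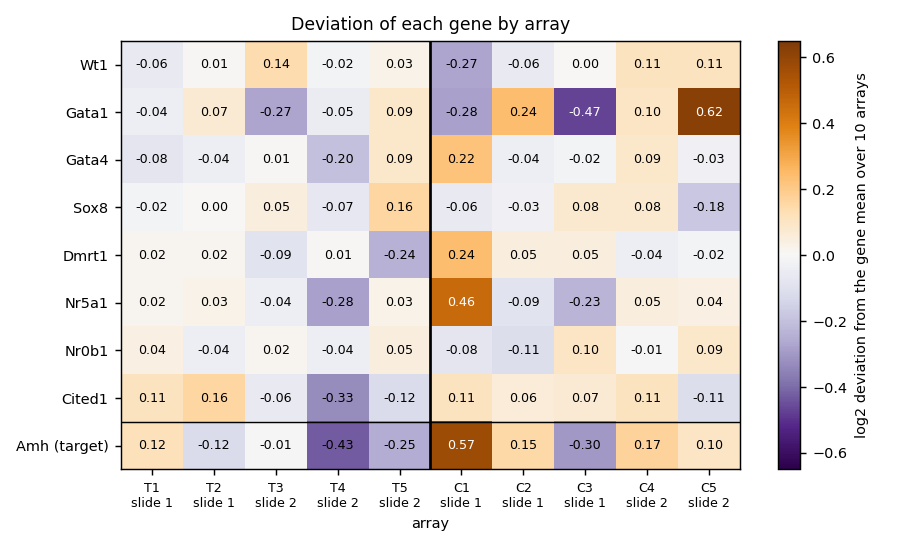
Deviation of the 8 genes and of Amh, a target of NR5A1 and GATA4, from their mean over 10 arrays on the log2 scale, with T arrays left of the line and C arrays right of it. Gata4, Nr5a1 and Amh are all highest on C replicate 1 and lowest on T replicate 4, and no gene splits by group.

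The genes whose levels ran most like each member over the 10 arrays were sought among 10964 genes well above background on every array, with Pearson's r as the measure. For Nr5a1 they were Piezo1, Palm and Mgat4b (r = 0.953, 0.95 and 0.947), and for Gata4 Kdelr1, Phb2 and Sugp2 (0.936, 0.935 and 0.928). Wt1 ran with Klf10, Smarca5 and Stk4 (0.955, 0.946 and 0.945), and Dmrt1 with Cldn12, Sf3a1 and Trappc5 (0.961, 0.957 and 0.927). Cited1 ran with Blvra, Bub3 and Eif4h (0.964, 0.953 and 0.953), Sox8 with Lgals7, Plac1 and Slc12a8 (0.941, 0.885 and 0.878), and Gata1 with Spryd4, Angel2 and Adam23 (0.916, 0.912 and 0.896). Nr0b1, the steadiest member, had the weakest matches, Pfn2, C1qtnf2 and Gatm (0.880, 0.832 and 0.825). Each r is the highest of 10964 over only 10 arrays and describes these arrays alone.

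Other transcription factors and cofactors of the gonad stood mostly a little lower in T testes. Of 37 measured genes of this list, 11 were above and 26 below 0, with a median of -0.054, and 0 passed the adjusted threshold. Over all genes 46.1% were above 0, with a median of -0.0089. At unadjusted p under 0.05 there were 0 higher and 2 lower, against 1.97% and 2.04% of all genes. Gata6 and Zfpm2, the relative and the cofactor of GATA4, stood at -0.18 ± 0.083 and -0.15 ± 0.077, and were named for that tie after their values were seen. Rhox5, a homeobox gene of Sertoli cells, stood at -0.52 ± 0.23. Nr2c1, an orphan nuclear receptor, was one of the 2 and stood at -0.12 ± 0.051. Every T array lay under every C array there, and groups without overlap occurred on 0.722% of all probes.

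Hes1, a repressor switched on by Notch signals, was the other and had 2 levels. T replicates 1 to 5 read -4.04, -4.34, -4.48, -4.43 and -4.76, and C replicates 1 to 5 read -2.44, -2.46, -2.64, -4.33 and -4.50. The 3 high arrays were the 3 C arrays of slide 1, while the 2 C arrays of slide 2 lay among the T arrays. T minus C was -1.14 ± 0.42 over all arrays (limma adjusted p = 0.999), -1.67 within slide 1 and -0.15 within slide 2.

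Genes listed as Sertoli cell targets were split in both directions, and whether the members control them was not tested. Of 25 measured Sertoli cell targets, 9 were above and 16 below 0 (median -0.015), against 46.1% of all genes above 0. At unadjusted p under 0.05, 2 were higher and 2 lower, against 1.97% and 2.04% of all genes. This list, like the others, was chosen with earlier results of these data known. Its counts therefore describe the list and are no independent test against those shares. Nr4a1, an early response nuclear receptor, stood at 0.50 ± 0.13 with all T arrays above all C arrays, and Ptgds, a prostaglandin D synthase, at 0.54 ± 0.23. Gdnf, the growth factor of spermatogonial stem cells, stood at -0.31 ± 0.080, with no overlap of the groups, and Kitlg, the ligand of the Kit receptor, at -0.24 ± 0.10. Groups without overlap, as for Nr4a1 and Gdnf, occurred on 0.722% of all probes. Of the better known genes on this list, Inha, Dhh and Fshr stayed within 0.05 of 0, at -0.046 ± 0.093, -0.0068 ± 0.067 and 0.0032 ± 0.095. Amh, described above, stood at -0.28 ± 0.15. These were also named after their values were seen. None of these passed limma's adjusted threshold (adjusted p = 0.999 for each).

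Of 15 measured genes listed as steroidogenic targets, 8 were above and 7 below 0 (median 0.0049), against 46.1% of all genes above 0. Only Akr1b7, an aldo-keto reductase under NR5A1 control in the mouse adrenal, had an unadjusted p under 0.05, at 0.41 ± 0.16. That made 1 higher and 0 lower of 15, against 1.97% and 2.04% of all genes. Insl3, a Leydig cell hormone that NR5A1 activates, stood at 0.35 ± 0.18 and Prlr, the prolactin receptor, at -0.22 ± 0.10. Genes of the ovarian pathway, which SOX9 and DMRT1 hold down in the testis, numbered 10, with 6 above and 4 below 0, against the same 46.1%. Of these Wnt4 stood at 0.26 ± 0.10 and Fgfr2 at 0.23 ± 0.088, both at unadjusted p under 0.05. They made 2 higher and 0 lower of 10, against 1.97% and 2.04% of all genes. Bmp2, a bone morphogenetic protein, stood at -0.27 ± 0.16. Fgfr2 belongs to this list although the receptor also serves testis formation, and its 3 other probes gave -0.13 to 0.10. Among markers of other cells, 9 of peritubular myoid cells were measured, 4 above and 5 below 0, from -0.14 to 0.25. Cnn1, Tagln and Myh11 of this list stood at -0.13 ± 0.093, -0.099 ± 0.087 and -0.098 ± 0.096. The epididymis had 7 measured markers, 6 above and 1 below 0, with Spink8 at 0.18 ± 0.13 and Lcn5 at 0.29 ± 0.24. With limma, 0 genes of these lists passed after adjustment (lowest adjusted p = 0.999).

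**Figure D4:**
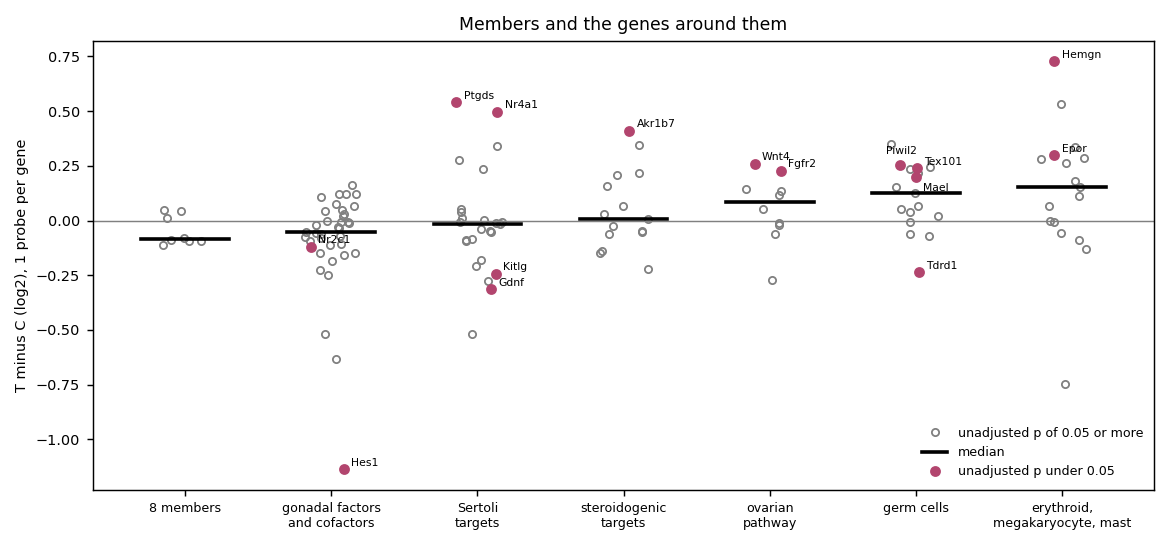
T minus C (log2, 1 probe per gene) for the 8 members and for the lists of genes around them, with a bar at each median and filled points for an unadjusted p under 0.05. The members lie close to 0, between -0.11 and 0.047, while Hes1 at -1.14 and Hemgn at 0.73 lie farthest out among the filled points.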

How the data were processed

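Total RNA was treated with DNase, amplified and labelled with Cy3, per the labels' protocols. Per the file headers, Agilent Feature Extraction 10.7.3.1 produced each spot's intensity after background subtraction and detrending (the submitters' processing notes give version 10.7). The deposited intensities are not scaled between arrays. The authors' deposited value table holds log2 values centred per probe, which correlated at 0.998 to 0.999 with the centred scanner values of the same arrays. Its column medians were 0.0032, 0.0037, -0.0026, -0.017 and -0.0023 for T replicates 1 to 5 and 0.029, 0.00014, -0.017, 0.020 and -0.0089 for C replicates 1 to 5. Its direction matches the scanner values, its scaling between arrays stays unknown, and it served as an alternative.

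The processed signal was converted to log2 after scaling to the 75th percentile of the 58717 spots that are not controls. Spots that the scanner software marked as outliers (494 to 745 per array) were left out, spots of a probe were averaged, and 21892 of 30367 probes well above background on at least 5 arrays were kept, all 10 member probes among them. Transcripts were matched without version to RefSeq genes of GRCr8 (17998 probes named, 12369 not). The probe with the highest mean stood for a gene. Groups were compared with limma 3.58.1 in R 4.3.3 (lmFit, eBayes, two-sided, Benjamini-Hochberg over all probes). On data simulated with the spread of these 5 arrays against 5 and 21892 probes, 64.5% of 200 probes changed 1.5-fold and 84% of 200 changed 2-fold were recovered. There were 12 and 8 false calls. With 200 probes changed at once the adjusted threshold is easier to pass than with a single changed probe. These rates therefore do not give the recovery of a single changed member. The text names the 8 members, the 3 genes of each list with the smallest p, the 3 genes most like each member, and others named after their values were seen, among them Mael, Kitlg and the markers named only for being above background or not. Some genes that this rule would name are not reported here. Members and lists were chosen with earlier results of these data known. Precision is limited by having 5 arrays per group, and 0 columns of other samples were left unused.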

Additional observations from a re-analysis of the deposited data

Results flagged for a closer look

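Nr5a1 is listed because T replicate 4 (-2.63) lay far from the other T arrays, which ran from -2.39 to -2.31. Cited1 is listed because C replicate 5 (4.76) lay far from the other C arrays, which ran from 4.93 to 4.98. Both gaps exceed Dixon's 95% critical value for 5 arrays, and 20 groups of 5 were tested (10 probes in T and in C), of which chance picks out about 1 in 20.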

How the results depend on the processing

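In none of the alternatives did a probe pass the adjusted threshold over all probes, and no member gene had an adjusted p under 0.05 (limma, lowest 0.848, for Dmrt1 and Cited1 without T replicate 1). The count of members with an unadjusted p under 0.05 was 0 in all settings except with the father's code number as a replicate block, where it was 1, Gata1 at -0.40 (unadjusted p = 0.0288). There Wt1 turned to -0.024, Nr5a1 to 0.0033 and Cited1 to 0.050. Only the numbers 2, 4 and 6 occur in both groups, so these block estimates rest on those arrays. The deviations of same-numbered arrays correlated at -0.51, 0.28 and 0.19, the first pair on different slides and the others on the same slide. So few pairs cannot decide whether such arrays share more than a number. Gata4 and Dmrt1 kept their sign in all 25 alternatives, from -0.12 to -0.043 and from -0.14 to -0.013. Within slide 1 Gata1 turned to 0.19, Sox8 to -0.0057 and Cited1 to 0.056. Within slide 2 Wt1 turned to -0.062 and Nr0b1 to -0.031. Normexp turned Nr0b1 to -0.026, and the mean of all Wt1 probes turned Wt1 to -0.049. Leaving out 1 array at a time gave -0.020 to 0.076 for Wt1, -0.21 to 0.063 for Gata1, -0.16 to 0.0087 for Nr5a1 and -0.017 to 0.035 for Nr0b1. The causes were not tested. By exact permutation over the 252 splits of the arrays the p-values of the 8 genes ran from 0.167 to 0.825. With slide as a block, the counts at unadjusted p under 0.05 were 3, 3 and 1 for the gonadal factors, Sertoli targets and steroidogenic targets, against 2, 4 and 1 without it. Normexp used the median spot signal. Gata1 has no value under the authors' table and was not kept when all 10 arrays had to be above background.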
